A study of Homo sapiens with 4 samples.

Results

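The response of Saos-2 cells to a hairpin RNA against the circular RNA hsa_circ_0000073 was described from 2 of the 4 arrays of the series, those labelled with the cell line Saos-2. Total RNA was measured on Affymetrix GeneChip arrays, with 1 array for Saos-2 cells transfected with sh-circ_0000073 and 1 array for Saos-2 cells transfected with the control hairpin sh-NC. The same hairpins were also put into MG-63 cells, another osteosarcoma line, on 1 array each. The titles of the samples write si-hsa_circ_0000073 and si-NC, whereas their characteristics write sh-circ_0000073 and sh-NC, and the spelling of the characteristics is used here. All cells, controls included, were transfected. Of 33458 genes that a probe set with exactly 1 gene symbol stood for, 11769 had a log2 signal of at least 6 on the brighter Saos-2 array, and these genes are described. Changes are differences of log2 signals, sh-circ_0000073 less sh-NC. With 1 array per condition no difference has a replicate check, so sizes are given without p-values, and the hairpin cannot be told apart from any other difference between the arrays or the cultures.

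Circular RNAs are closed loops made when the end of an exon is spliced back to the start of the same or an earlier exon. A short hairpin RNA is cut in the cell into a small duplex, of which a strand guides a nuclease complex to matching RNA, and a hairpin across the back-splice junction can lower the circle while sparing the linear RNA of its host gene. Saos-2 cells come from an osteosarcoma, a tumour of bone-forming cells. They keep much of the osteoblast program, including strong alkaline phosphatase, and lack working RB1.

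The hairpins listed by the study are shown because their sequence is the only difference that the design sets between the conditions. The targeting hairpin with the number 1 is the one that the study took forward, though the labels of the arrays do not number it. Capitals mark the overhang of 2 bases at the end, after 21 bases of the targeting hairpin and 19 bases of the control.
sh-hsa_circ_0000073-1: gcugcaaaggggcauaaggaaTT
sh-NC: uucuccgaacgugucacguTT

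The line label was checked against marker genes. RB1, the retinoblastoma protein, had a log2 signal of 5.78 with sh-circ_0000073 and 6.17 with sh-NC in Saos-2, against 11.91 and 11.90 in MG-63. ALPL, the alkaline phosphatase of mineralizing osteoblasts, had 15.81 with sh-circ_0000073 and 16.57 with sh-NC in Saos-2, and 3.97 and 3.89 in MG-63, so that both genes separated the lines on every array. Of 8 analysed osteoblast markers 7 reached the minimum, among them RUNX2, SP7, IBSP and SPARC. None of 14 blood cell markers did, and their summed linear signal was 258 with sh-circ_0000073 and 273 with sh-NC. Epithelial markers reached the minimum in 3 of 10 cases (EPCAM, KRT8 and KRT18), endothelial markers in 1 of 8 and muscle markers in 2 of 9. No probe set was matched to hsa_circ_0000073, so the arrays give no value for the extent of the knockdown. The study measured the knockdown by qRT-PCR and took forward the more efficient hairpin.

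Across the 11769 genes, 1937 were higher by more than 1.5-fold with sh-circ_0000073 (16.5%) and 1063 were lower by more than 1.5-fold (9.03%), whereas 8769 were neither. At 2-fold the counts were 537 higher and 363 lower. The median change was 0.12 and the middle 50% of genes lay between -0.20 and 0.43. Higher genes made up 64.6% of those past 1.5-fold. That share depended on the general shift between the arrays. When the median change of genes of like signal was subtracted, which lowered the changes by 0.12 at the median and by 0.04 to 0.15 over all genes, 1370 genes were higher and 1477 lower, so that 48.1% of the changed genes were higher. The directions of the gene lists given below held under that correction, except where stated. The background for every list is 16.5% higher and 9.03% lower, or 1370 and 1477 of the 11769 genes under the correction. Changes became rarer among the brightest genes: at a mean signal above 16, 3.92% were higher and 3.01% lower, while at a mean of up to 8 the shares were 17.2% and 9.48%. Close to the threshold of 0.585, 492 genes lay within 0.1 above it and 628 within 0.1 below it on the higher side, against 252 and 332 on the lower side.

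**Figure D1:**
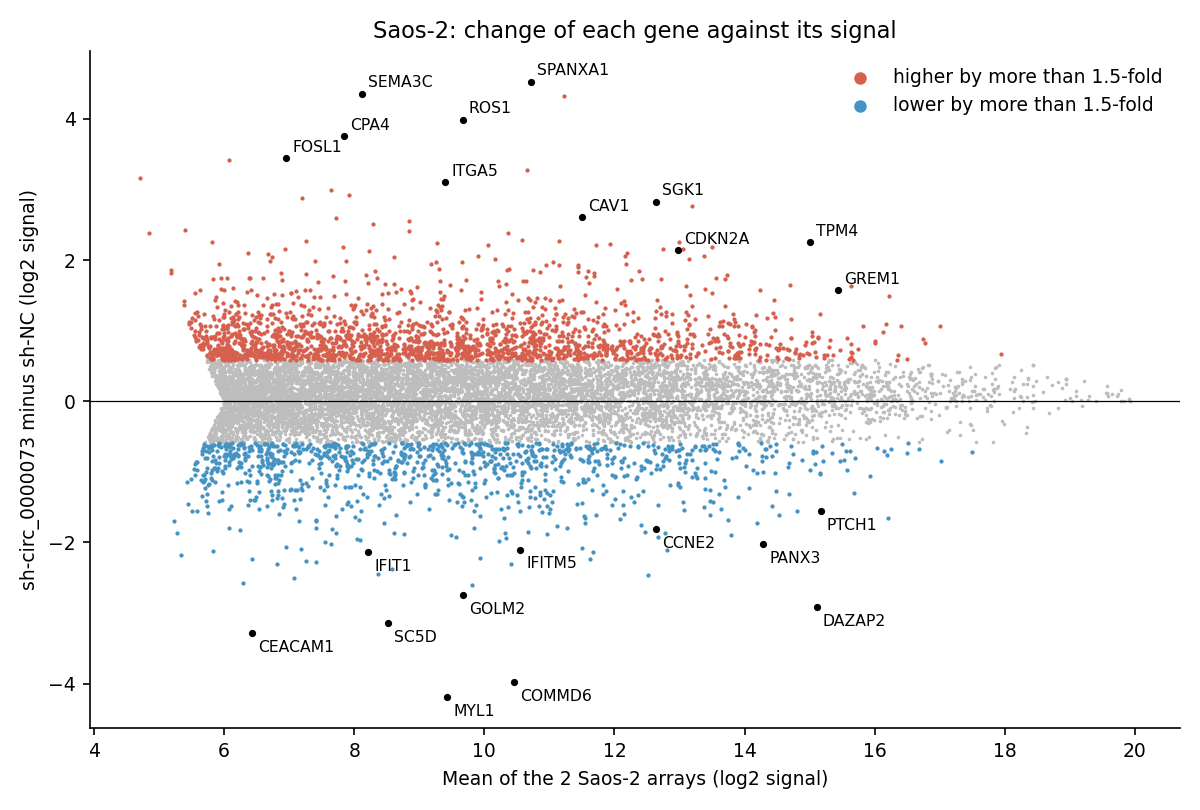
Change in Saos-2 (sh-circ_0000073 minus sh-NC, log2 signal) of the 11769 genes against the mean of both Saos-2 arrays (log2 signal). Each point is a gene, red points are the 1937 genes higher and blue points the 1063 genes lower by more than 1.5-fold, and black points carry the names of genes described in the text. SPANXA1 lies at 4.53 and MYL1 at -4.19.

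The 20 largest increases ranged between 5.39-fold and 23.1-fold and the 20 largest decreases between 4.53-fold and 18.3-fold. The array with the lower signal was below 6 for 7 of the increases and 6 of the decreases, and the size of those changes is less certain. Several of the increases concern receptors, matrix and movement. SEMA3C, a secreted semaphorin that guides migrating cells, had 10.30 with sh-circ_0000073 and 5.94 with sh-NC, which is 20.5-fold higher. ROS1, a receptor tyrosine kinase known from cancer-driving fusions, had 11.66 with sh-circ_0000073 and 7.67 with sh-NC (15.9-fold higher). ITGA5, the integrin chain that pairs with ITGB1 to bind fibronectin, had 10.95 with sh-circ_0000073 and 7.84 with sh-NC (8.63-fold higher). Further members of this set were the carboxypeptidase CPA4 (change 3.76), the AP-1 subunit FOSL1 (3.44), the GTPase regulator ARHGAP29 (3.42), the adhesion receptor ADGRG1 (3.17), the CXCL12-scavenging receptor ACKR3 (2.92), the microtubule protein MAP1A (2.88), the caveolar coat protein CAV1 (2.61), the potassium channel KCNJ2 (2.60), the matrix protein TGFBI (2.55), the T cell costimulator TNFRSF9 (2.51) and the gonadotropin chain CGB8 (2.43). SGK1, a kinase induced by serum and glucocorticoids that regulates ion transport, had 14.05 with sh-circ_0000073 and 11.22 with sh-NC (7.11-fold higher). The histone gene H2BC17 changed by 2.99.

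Genes of the SPANX family, which are X-linked, are normally made in sperm and reappear in tumours, filled 4 of the 20 places. The changes were 4.53 for SPANXA1, 4.33 for SPANXA2, 3.28 for SPANXD and 2.77 for SPANXB1. These genes are near-identical copies, so 4 probe sets may report 1 RNA and the members cannot be told apart. The related SPANXN1 changed by 1.13 and the melanoma antigen MAGEB2 by 0.85. Of 16 listed cancer-testis genes at the minimum 5 were higher and none was lower by more than 1.5-fold, with a median change of 0.35, and 1 was lower after removal of the general shift. That list does not hold every gene named here, and it counts SPANX copies separately. MAGEC2, another antigen of this kind, had 12.18 with sh-circ_0000073 and 12.76 with sh-NC, which is within 1.5-fold.

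Among the decreases, MYL1, a light chain of fast muscle myosin, had 7.33 with sh-circ_0000073 and 11.52 with sh-NC, which is 18.3-fold lower. COMMD6, a subunit of the COMMD complex of endosomal recycling, had 8.47 with sh-circ_0000073 and 12.45 with sh-NC (15.8-fold lower). CEACAM1, an adhesion protein of epithelia and leukocytes, was at 4.79 with sh-circ_0000073 and 8.07 with sh-NC. DAZAP2, a small proline-rich adaptor, had 13.65 with sh-circ_0000073 and 16.57 with sh-NC (7.57-fold lower). SC5D, a desaturase near the end of cholesterol synthesis, changed by -3.14, GOLM2, a Golgi membrane protein, by -2.75, CLIC6, of the chloride intracellular channel family, by -2.57, and CTSS, a lysosomal protease, by -2.50. CFAP20 (-2.46), WRNIP1 (-2.45), the glycosyltransferase GALNT3 (-2.37), the engulfment adaptor GULP1 (-2.31), the exchange factor NGEF (-2.27), FAM136A (-2.26), the kinases HIPK3 and MAP2K6 (-2.24 each), GPR180 (-2.22) and the mucin MUC13 (-2.18) completed the protein-coding members, and 2 pseudogenes, RNU6ATAC12P and OR8B10P, were also among the 20.

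The same genes were looked up in MG-63. Of the 20 increases 12 reached the minimum in MG-63, where 3 were higher and none lower by more than 1.5-fold, against a background of 15.1% of MG-63 genes higher and 11.8% lower. Of the 20 decreases 13 reached it, where 12 were lower and none higher. In MG-63 the changes were -2.45 for COMMD6, -3.74 for SC5D, -1.89 for DAZAP2, -3.28 for GOLM2, -2.54 for CTSS and -3.47 for GPR180. The changes there were 1.57 for SEMA3C, 0.81 for ITGA5 and 2.39 for SGK1, whereas those of CPA4 (0.53), FOSL1 (-0.19), ACKR3 (-0.05), CAV1 (0.35) and TGFBI (-0.22) were within 1.5-fold.

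Several of the genes higher in Saos-2 with sh-circ_0000073 are brighter in MG-63. CPA4 had 17.40 with sh-circ_0000073 and 16.87 with sh-NC in MG-63, CAV1 16.51 and 16.16, and TGFBI 18.04 and 18.26. Of 270 genes with a mean signal over 4 higher in MG-63 than in Saos-2, sh-circ_0000073 went with higher signals in Saos-2 in 28.1% and with lower signals in 15.2%, again by more than 1.5-fold. Of 367 genes with a mean over 4 lower in MG-63, 16.3% were higher and 26.4% lower, and of the 8946 genes within 2 of each other 15.4% were higher and 7.06% lower. After removal of the general shift the shares were 24.1% higher and 18.5% lower in the first group, 12.5% and 33.5% in the second, and 10.8% and 10.1% among the genes within 2. Genes dim in Saos-2 entered the first group only when the brighter Saos-2 array reached 6, which favours genes that changed. Another set took 65 genes at 12 or more on both MG-63 arrays with a Saos-2 mean under 5.5, without that minimum. Of these 10 were higher and 5 lower, with a median change of 0.04. Over all 33458 genes without a minimum 8.97% were higher and 5.18% lower.

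The osteoblast program was lower at several of its regulators with sh-circ_0000073. Of 10 osteoblast transcription factors at the minimum 5 were lower and 3 higher by more than 1.5-fold, with a median change of -0.48. DLX5, a homeobox factor that switches on SP7, had 12.80 with sh-circ_0000073 and 14.22 with sh-NC (change -1.42), and its neighbour DLX6 had 6.82 and 8.29 (-1.47). SP7, also called osterix and required for bone formation, had 8.66 with sh-circ_0000073 and 9.77 with sh-NC (-1.11). The homeobox factors DLX3 and MSX2 changed by -0.74 and -0.71. RUNX2, the factor above SP7 in the lineage, had 16.39 with sh-circ_0000073 and 16.53 with sh-NC, a change of -0.14. The 3 higher members were ATF4 (0.88), which supports matrix protein synthesis in osteoblasts, TWIST1 (0.83), which restrains RUNX2, and ZHX3 (0.61), of which ZHX3 was within 1.5-fold once the general shift was removed.

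Of 6 genes of mineral deposition at the minimum 2 were lower and none higher by more than 1.5-fold, with a median change of -0.08. With both signals at 6 or more, 1 was lower. PHOSPHO1, the phosphatase that releases phosphate inside matrix vesicles, had 5.91 with sh-circ_0000073 and 7.98 with sh-NC (4.20-fold lower), and ALPL was 1.69-fold lower. The other 4, ENPP1, ANKH, SLC20A1 and SLC20A2, lay between -0.28 and 0.49. From outside the list, and named after their values were seen, PANX3, a channel protein of osteoblasts and hypertrophic cartilage, had 13.28 with sh-circ_0000073 and 15.30 with sh-NC, and IFITM5, a bone-restricted membrane protein mutated in a form of brittle bone disease, had 9.50 and 11.60. BMP6, an osteogenic growth factor, had 6.55 with sh-circ_0000073 and 8.54 with sh-NC. Bone matrix proteins lay on both sides of 0: COL1A1 changed by 0.61, SPARC by 0.47, COL1A2 by 0.17 and IBSP by -0.50, and osteomodulin (OMD) by 0.96. A further probe set of COL1A1 changed by 0.21. In MG-63, DLX5, SP7 and ALPL changed by 0.40, 0.11 and 0.08. Genes of bone remodelling signals were higher in 3 of 6 cases and lower in none, with IL11, a cytokine that promotes osteoclasts, at 8.87 with sh-circ_0000073 and 6.88 with sh-NC, the decoy receptor TNFRSF11B at 8.82 and 7.89 and the vitamin D receptor VDR at 11.68 and 10.89.

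**Figure D2:**
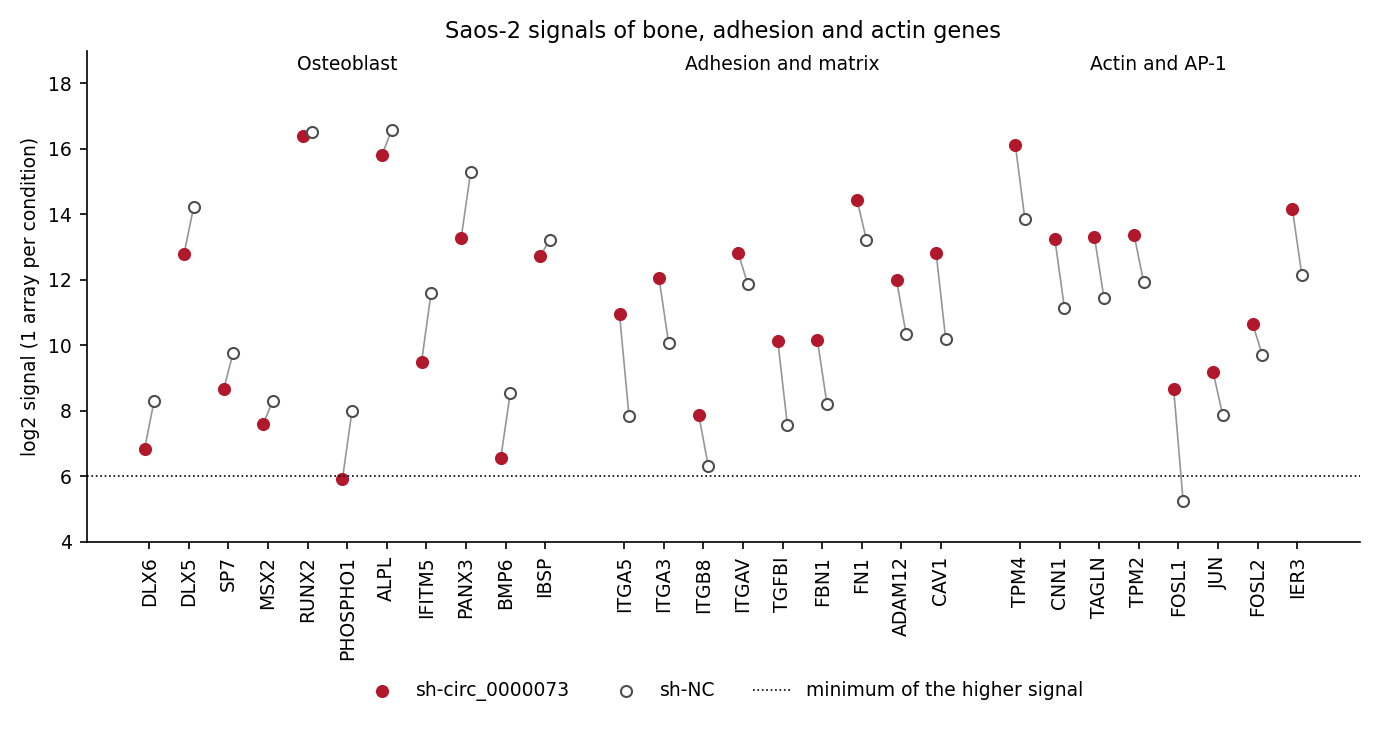
Log2 signals on the Saos-2 arrays of osteoblast genes, adhesion and matrix genes, and actin and AP-1 genes, with sh-circ_0000073 as filled red points left of sh-NC as open points, 1 array per condition. DLX5, SP7, PHOSPHO1, IFITM5, PANX3 and BMP6 lie lower with sh-circ_0000073, RUNX2 lies at 16.39 and 16.53, and the adhesion, actin and AP-1 genes shown lie higher. The genes are a selection, with PANX3 and IFITM5 named after their values were seen. Not shown are the higher bone genes OMD, ATF4, TWIST1, ZHX3 and COL1A1. Lower genes not shown include ITGA4, MATN2, LAMB1, THBS2, MYL1 and TNNC1.

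Integrins, the receptors that couple matrix to the actin skeleton, were higher in 5 of 10 cases and lower in 1, with a median change of 0.64 against 0.12 over all genes. ITGA3, a laminin receptor chain, had 12.04 with sh-circ_0000073 and 10.07 with sh-NC (change 1.97), and ITGB8, which with ITGAV activates latent TGF-beta, had 7.88 and 6.32 (1.56). ITGAV changed by 0.96 and ITGA6 by 0.81. The exception was ITGA4, at 12.42 with sh-circ_0000073 and 13.25 with sh-NC. The cytoplasmic proteins of focal adhesions did not share the pattern, with 1 of 15 higher (ZYX, 0.76), none lower and a median of -0.09, and 1 was lower after removal of the general shift. Among matrix glycoproteins 5 of 25 were higher and 6 lower. The fibrillin FBN1 (1.94), the proteoglycan VCAN (1.32) and fibronectin FN1, with 14.45 with sh-circ_0000073 and 13.21 with sh-NC, were on the higher side, and MATN2 (-1.31), LAMB1 (-1.19) and THBS2 (-1.08) on the lower side. Proteases that shed receptors and open the matrix were higher in 5 of 11 cases and lower in none (median 0.50), while the 3 inhibitors at the minimum were within 1.5-fold. The higher ones were ADAM15 (1.69), ADAM12 (1.63), ADAMTS1 (1.29), ADAMTS5 (1.08) and MMP14 (0.81).

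A few actin genes changed strongly while the list as a whole lay near the background: of 19 contractile genes 4 were higher and 2 lower. TPM4, a tropomyosin of non-muscle cells, had 16.13 with sh-circ_0000073 and 13.87 with sh-NC (4.79-fold higher). The smooth muscle calponin CNN1 had 13.24 with sh-circ_0000073 and 11.14 with sh-NC, TAGLN 13.30 and 11.45, and TPM2 13.38 and 11.94. The 2 lower members, MYL1 and the troponin TNNC1 (-1.05), belong to striated muscle. PAX7, a factor of muscle stem cells, had 6.61 with sh-circ_0000073 and 7.78 with sh-NC, and the other muscle marker at the minimum, ACTA1, changed by 0.34.

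Transcription factors and feedback genes of the growth factor response were on the higher side. Of 6 AP-1 members 3 were higher and none lower: FOSL1 had 8.67 with sh-circ_0000073 and 5.23 with sh-NC, JUN 9.17 and 7.86, and FOSL2 10.64 and 9.70. FOSL1 reached the minimum only with sh-circ_0000073, and with both signals at 6 or more 2 AP-1 members were higher. Of 20 immediate early and ERK feedback genes 9 were higher and none lower by more than 1.5-fold, with a median of 0.51; after removal of the general shift 8 were higher and 2 lower. They included the survival gene IER3, at 14.16 with sh-circ_0000073 and 12.14 with sh-NC, PHLDA1 (1.56), the dual-specificity phosphatases DUSP5 (1.34) and DUSP10 (1.26), the early factor EGR1 (1.11) and the inhibitor SPRED2 (0.88). DUSP1 (-0.45) and EPHA2 (-0.46) were on the other side of 0. The AP-1 motif TGANTCA, searched on both strands 250 bases before to 50 bases after the RefSeq start, was found at 5.49% of the promoters of higher genes, 3.95% of those of lower genes and 4.34% of all 7723 promoters matched to genes at the minimum, and at 7.76% of the 27305 promoters of the table. None of the 16 matched promoters of immediate early and ERK feedback genes held it.

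Ligands and receptors of growth signals moved in both directions. The EGF family ligand HBEGF had 7.70 with sh-circ_0000073 and 5.71 with sh-NC, and ERBB2 6.80 and 5.57, whereas EGFR had 6.26 with sh-circ_0000073 and 7.31 with sh-NC. HBEGF and ERBB2 reached the minimum only with sh-circ_0000073. No gene of the EGF list was higher when both signals had to reach 6, and 1 was lower. AXL, the receptor of GAS6, had 11.68 with sh-circ_0000073 and 9.82 with sh-NC, and the collagen receptor DDR2 changed by 0.89. PDGFRA (-1.11), the neurotrophin BDNF (-1.56) and PGF (-1.37), a ligand of the VEGF family, were lower. PGF had been picked by the study from these arrays for being lower. IGFBP3, which binds insulin-like growth factors, changed by 1.75, and its relative IGFBP7, at 12.77 with sh-circ_0000073 and 14.18 with sh-NC, by -1.41. Among semaphorins and their receptors 6 of 14 were higher and 2 lower (median 0.42), with SEMA3D (1.24), SEMA3A (1.05), the receptor NRP2 (0.81) and the plexin PLXNA1 (0.79) beside SEMA3C, and SEMA5A (-1.82) and SEMA6C (-0.92) lower. Some members, SEMA3C among them, reached the minimum only on the array where they were brighter. Counting only genes at 6 or more on both arrays, 4 were higher and 1 lower.

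Notch and Hedgehog genes, which keep progenitor cells from maturing in many tissues, were lower in 8 of 15 cases and higher in 2. Their median change of -0.73 rested on few genes: HES1, JAG2 and GLI1 had been picked by the study from these arrays for being lower, and without these 3 genes 5 of 12 were lower, 2 were higher and the median was 0.06. PTCH1, the Hedgehog receptor and a target of the pathway, had 14.39 with sh-circ_0000073 and 15.95 with sh-NC (2.95-fold lower). The transducer SMO changed by -1.08, and the transcription factors GLI2 and GLI1 by -1.22 and -0.75. Another, dimmer probe set of GLI2 changed by only -0.22. On the Notch side HES1, a target gene, changed by -1.33 and the ligand JAG2 by -0.79, and the receptor NOTCH2 had 13.04 with sh-circ_0000073 and 14.04 with sh-NC. The coactivator MAML2 was higher, at 11.23 with sh-circ_0000073 and 10.07 with sh-NC. The 3 picked genes are no independent evidence for the list.

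BMP, TGF-beta and Wnt genes showed no common direction. For BMP signalling 3 of 20 were higher and 5 lower (median 0.02), and 1 and 5 after removal of the general shift. GREM1, a secreted BMP inhibitor, had 16.22 with sh-circ_0000073 and 14.64 with sh-NC, the decoy receptor BAMBI 9.75 and 11.60, and the inhibitory SMAD6 7.51 and 8.87. In the TGF-beta list SMAD3 changed by -1.39, TGFBR2 by -0.89 and TGFBR3 by -1.13, while the targets TGFBI (2.55) and PMEPA1 (1.21) and the latency protein LTBP3 (1.37) were higher. TGFBR2 is another gene that the study picked for being lower. Wnt genes were lower in 5 of 26 cases, with WNT11 (-1.31), WIF1 (-1.27), NKD1 (-0.81) and beta-catenin itself, CTNNB1, at 16.34 with sh-circ_0000073 and 17.02 with sh-NC, and higher in 2, LGR4 (1.24) and DKK3 (0.83).

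The genes of the amino acid stress response, which the factor ATF4 switches on when amino acids are short or the endoplasmic reticulum is overloaded, were higher in 16 of 30 cases and lower in none, with a median of 0.66, and 14 were higher and none lower after removal of the general shift. ATF4 itself had 12.97 with sh-circ_0000073 and 12.09 with sh-NC. SLC7A11, which imports cystine, had 13.58 with sh-circ_0000073 and 11.85 with sh-NC (3.32-fold higher), and CTH, which makes cysteine, had 9.29 and 7.75. ASNS, asparagine synthetase, had 11.95 with sh-circ_0000073 and 10.74 with sh-NC. DDIT3 (1.23), DDIT4 (1.19), the transporters SLC1A5 (1.03) and SLC7A1 (0.96) and NUPR1 (0.94) were also higher, whereas ATF3, often induced with them, changed by 0.18. In MG-63 the same list had a median of -0.28, with 3 of 31 higher and 6 lower.

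The promoter of ASNS is shown because its amino acid response element is the textbook binding site of ATF4 with a C/EBP partner. The sequence is from RefSeq, build GRCh38.p14, chr7:97872359-97872658, minus strand, and runs 250 bases before to 50 bases after the start, with the motif TGATGNAA in capitals.
ASNS promoter: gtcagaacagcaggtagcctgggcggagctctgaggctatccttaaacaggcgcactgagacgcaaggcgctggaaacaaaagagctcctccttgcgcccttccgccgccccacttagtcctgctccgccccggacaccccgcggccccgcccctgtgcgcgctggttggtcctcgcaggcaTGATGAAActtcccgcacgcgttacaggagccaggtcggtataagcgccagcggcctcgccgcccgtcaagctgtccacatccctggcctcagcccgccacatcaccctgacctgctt
Searched on both strands, the motif was found at 5 of 26 promoters of the list (19.2%), against 1.77% of the 7723 promoters of genes at the minimum and 3.67% of all 27305 promoters. The 5 genes were ASNS, SLC7A1, SLC3A2, AARS1 and ATF3, with changes of 1.21, 0.96, 0.60, 0.42 and 0.18. Within the list 3 of 12 higher members and 2 of 14 others with a promoter held the motif. Across all genes at the minimum it was at 1.68% of the promoters of higher genes and 2.04% of those of lower genes, so it did not follow the increases. A match is a run of letters and was not tested as a site.

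Related genes of redox balance and protein folding were higher in part. Of 40 glutathione, antioxidant and metallothionein genes 14 were higher and 4 lower (median 0.33). TXNIP, which inhibits thioredoxin, had 11.55 with sh-circ_0000073 and 9.17 with sh-NC, PRDX4, a peroxiredoxin of the secretory pathway, 14.13 and 11.87, NQO1 11.18 and 9.66, and GCLM, a subunit of the enzyme that limits glutathione synthesis, 11.34 and 10.35. Glutathione reductase GSR was lower, at 9.27 with sh-circ_0000073 and 10.43 with sh-NC. ERO1A, the oxidase that drives disulphide bonds in the endoplasmic reticulum, had 16.46 with sh-circ_0000073 and 14.82 with sh-NC. Of 23 reticulum chaperone and redox genes 6 were higher (26.1%, against 16.5% of all genes) and 2 lower (8.70%, against 9.03%). After removal of the general shift 4 were higher and 3 lower. MANF (1.00) and DNAJB9 (0.88) were higher and HSP90B1 (-0.93) was lower. EDEM1, which sends misfolded glycoproteins to degradation, changed by -1.97. The creatine carrier SLC6A8 (2.16) and the zinc carrier SLC39A14 (2.24) had the largest increases among 137 solute carriers, of which 25 were higher and 17 lower; that order reversed to 18 and 23 after removal of the general shift. The desaturase FADS2, at 14.03 with sh-circ_0000073 and 15.59 with sh-NC, was lower together with SC5D, while the sterol genes NPC1 (1.40), INSIG1 (1.06) and SREBF1 (0.97) were higher.

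**Figure D3:**
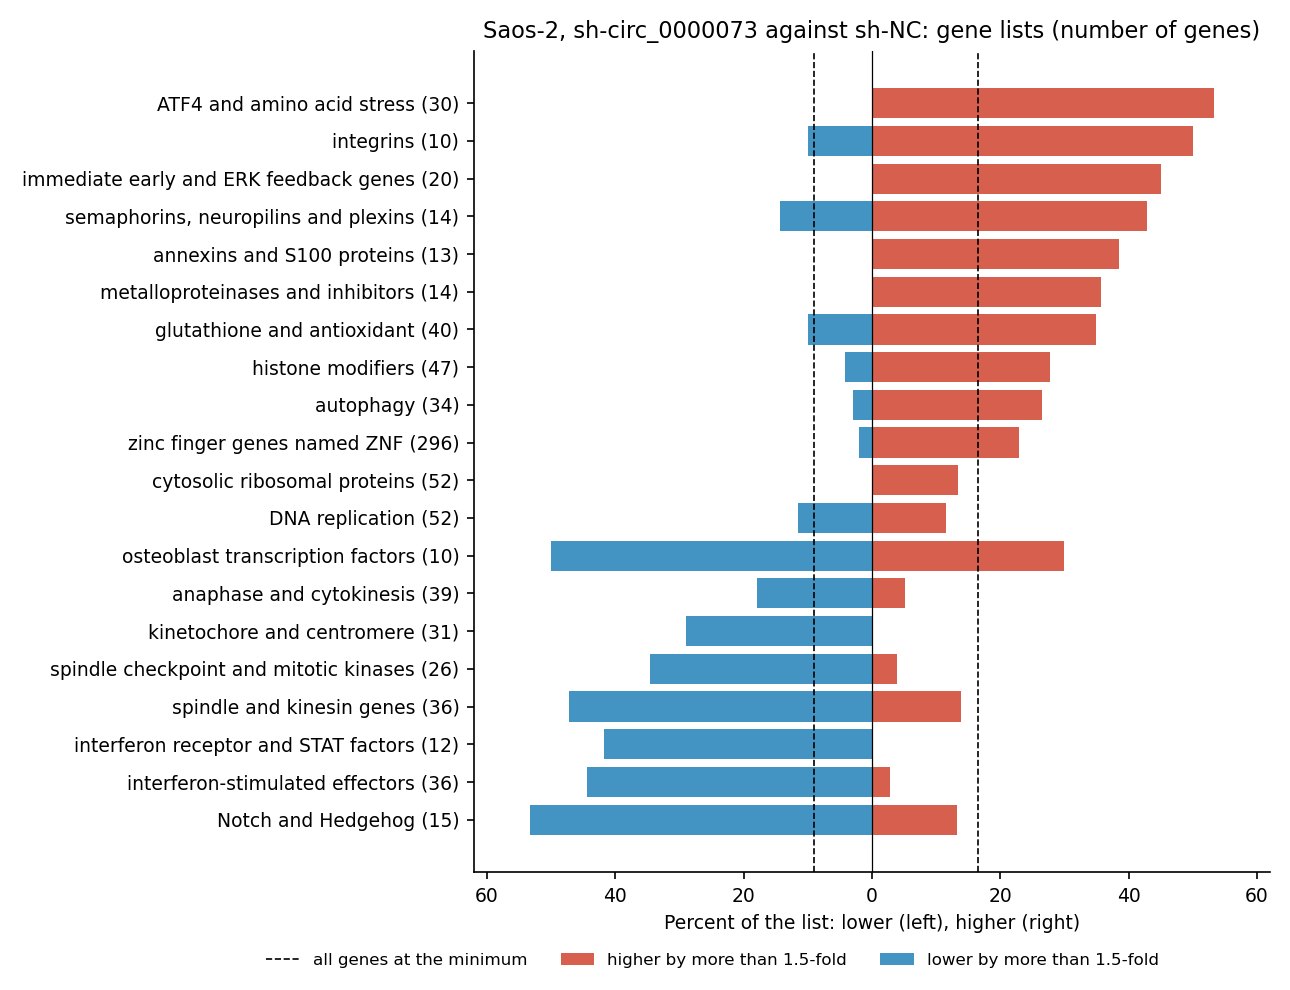
Percent of the genes of 20 lists that were higher (right, red) or lower (left, blue) by more than 1.5-fold in Saos-2 with sh-circ_0000073 against sh-NC, with the number of genes at the minimum in brackets. Dashed lines mark all genes at the minimum, 16.5% higher and 9.03% lower. The bars run between the amino acid stress list, 53.3% higher, and Notch and Hedgehog, 53.3% lower.

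Genes of the interferon response were on the lower side with sh-circ_0000073. Of 36 interferon-stimulated effectors at the minimum 16 were lower and 1 was higher by more than 1.5-fold, with a median of -0.47, and 34 of the 36 had a change below 0. IFIT1, which binds foreign RNA caps, had 7.14 with sh-circ_0000073 and 9.28 with sh-NC (4.41-fold lower), and its neighbour IFIT3 had 9.37 and 11.30. UBE2L6, the conjugating enzyme of ISG15, had 6.16 with sh-circ_0000073 and 7.66 with sh-NC. PARP12 changed by -1.31, DTX3L, a ubiquitin ligase, by -1.30, IFIT2 by -1.25 and LGALS3BP by -1.10. Of 8 sensors of double-stranded RNA 3 were lower and 1 higher: TLR3, the endosomal sensor, had 7.06 with sh-circ_0000073 and 9.01 with sh-NC, RIGI 7.71 and 8.73 and EIF2AK2, the kinase PKR, 13.85 and 14.70, while the adaptor MAVS had 9.65 and 9.03. Among 12 receptors and STAT-pathway factors none was higher and 5 were lower, with IRF9 (-1.37), the receptor chain IFNAR2 (-1.07), IRF1 (-0.78), USP18 (-0.73) and IRF2 (-0.72). Of these, IFNAR2 had been picked by the study from these arrays for being lower and is no independent evidence. In antigen processing the peptide loader TAPBP (-1.05), the trimming enzyme ERAP1 (-1.02) and 3 further genes were lower, 1 was higher (TAP2, 0.77), and 12 of 18 were within 1.5-fold.

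The interferon-stimulated response element, searched as 2 runs of GAAA with any 2 bases between them, is the site through which interferon signalling switches on its target genes. It was found on either strand at 21 of 30 promoters of the effectors (70.0%), against 2.95% of the 7723 promoters of genes at the minimum and 3.65% of all 27305 promoters. It did not single out the lower members, since 7 of the 12 lower and 14 of the 18 other effectors with a promoter held it (58.3% and 77.8%). The IFIT1 promoter, with 2 matches in capitals on the other strand, is given for GRCh38.p14 chr10:89392373-89392672, plus strand.
IFIT1 promoter: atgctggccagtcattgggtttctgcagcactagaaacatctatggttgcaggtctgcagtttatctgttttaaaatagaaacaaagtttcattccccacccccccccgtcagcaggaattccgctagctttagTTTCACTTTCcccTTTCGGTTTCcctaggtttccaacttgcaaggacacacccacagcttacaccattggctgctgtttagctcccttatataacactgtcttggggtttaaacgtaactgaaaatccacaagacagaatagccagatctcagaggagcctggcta
The other lower effectors with the largest changes and a match are set below it as 30 bases around the match, to show how the same letters recur in either orientation.
IFIT3: agccgttaggTTTCATTTTCctcctcccaa
PARP12: ccggggccgcTTTCGGTTTCgtttcccgcc
DTX3L: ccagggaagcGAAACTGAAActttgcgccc
LGALS3BP: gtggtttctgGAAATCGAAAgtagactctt
These windows lie at chr10:89327831-89327860, chr7:140062942-140062971, chr3:122564322-122564351 and chr17:78979962-78979991.

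In MG-63 the effectors were lower too, with 40 of 54 lower, 1 higher and a median of -0.94, but the leading Saos-2 genes did not lead there: IFIT1 changed by -0.11, IFIT3 by 0.51 and IFIT2 by 1.23 in MG-63. More effectors reached the minimum in MG-63, so the counts of the lines rest on different genes.

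**Figure D4:**
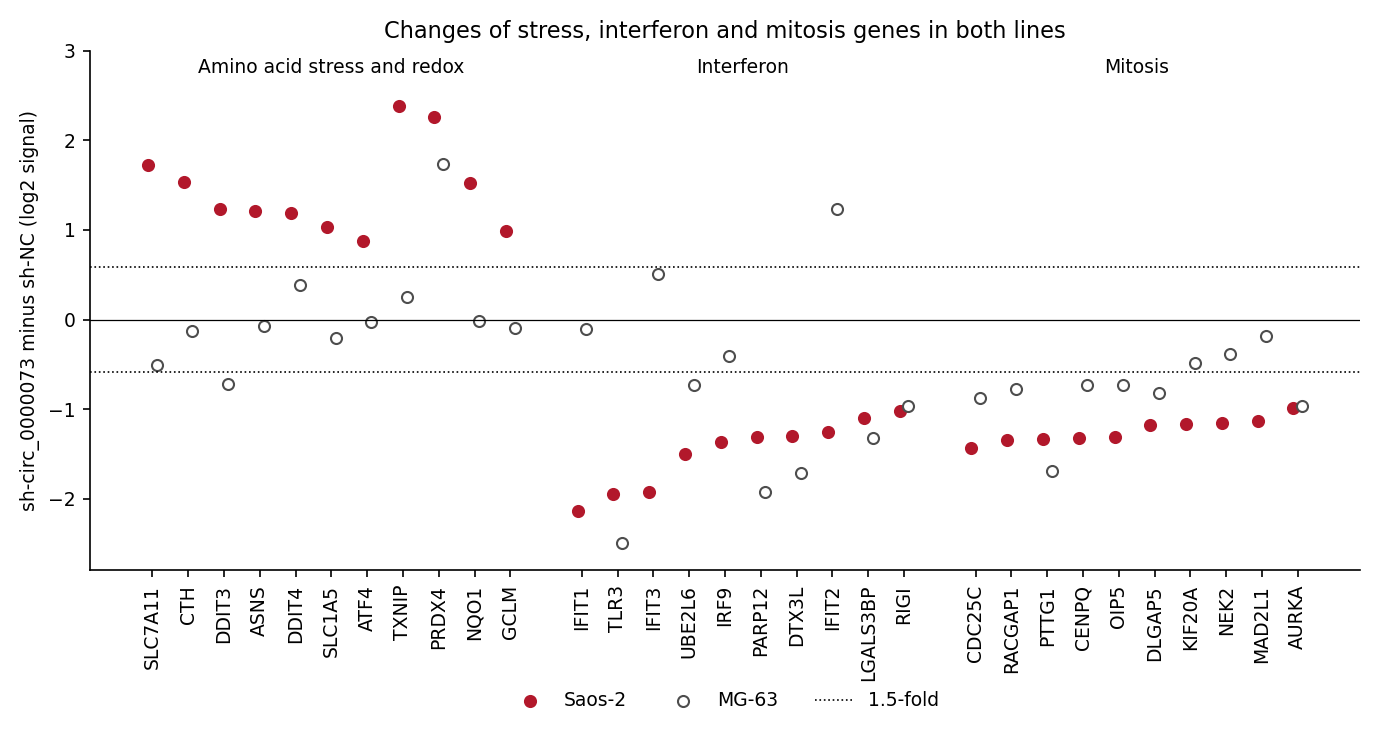
Change with sh-circ_0000073 minus sh-NC (log2 signal) of amino acid stress and redox genes, interferon genes and mitosis genes in Saos-2 (filled) and MG-63 (open), 1 array per condition. Dotted lines mark 1.5-fold. In Saos-2 the stress genes shown lie between 0.88 and 2.38, and the interferon and mitosis genes shown lie between -2.14 and -0.99. The genes are a selection, and members that changed the other way, such as GSR, MAVS and UBE2S, are not shown.

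Genes that act in mitosis were lower as a group with sh-circ_0000073. In such bulk RNA, fewer cells in mitosis and less RNA per cell cannot be told apart. Among kinetochore and centromere genes 9 of 31 were lower and none higher (median -0.29), among checkpoint genes and mitotic kinases 9 of 26 were lower and 1 higher (-0.33), among genes of anaphase and cytokinesis 7 of 39 and 2 (-0.15), and among spindle and kinesin genes 17 of 36 and 5 (-0.51). CDC25C, the phosphatase that activates CDK1, had 8.14 with sh-circ_0000073 and 9.57 with sh-NC (2.69-fold lower). AURKA, a spindle kinase, had 12.99 with sh-circ_0000073 and 13.98 with sh-NC, and the checkpoint protein MAD2L1 had 10.61 and 11.74. RACGAP1, which sets the cleavage furrow, changed by -1.35, the separase inhibitor PTTG1 by -1.33, the kinetochore proteins CENPQ and OIP5 by -1.32 and -1.31, the motor KIF20A by -1.17, the spindle protein SPAG5 by -1.16, and the kinase NEK2 by -1.15. The spindle motor KIF11 had 12.58 with sh-circ_0000073 and 13.58 with sh-NC. UBE2S, the chain-elongating enzyme of the anaphase-promoting complex, was the largest exception at 11.54 with sh-circ_0000073 and 10.08 with sh-NC, and KIF1C (1.18), another exception, is a transport motor rather than a mitotic one.

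Many mitotic promoters carry the cell cycle homology region, TTTGAA, through which the DREAM and MuvB complexes regulate them. It was found on either strand at 54 of 115 promoters of the 4 mitotic lists (47.0%), against 10.9% of the 7723 promoters of genes at the minimum and 15.4% of all 27305 promoters. Of the 36 lower members of these lists with a matched promoter 66.7% held it, and of the 79 others with one 38.0%. The lists also hold transport motors such as KIF1C, and no match was tested as a site. Across all genes at the minimum it was present at 17.1% of the promoters of lower genes and 8.50% of those of higher genes. The promoter of CCNB2, the mitotic cyclin that activates CDK1, is shown as an example (GRCh38.p14, chr15:59104896-59105195, plus strand, match in capitals), and CCNB2 changed by -0.82.
CCNB2 promoter: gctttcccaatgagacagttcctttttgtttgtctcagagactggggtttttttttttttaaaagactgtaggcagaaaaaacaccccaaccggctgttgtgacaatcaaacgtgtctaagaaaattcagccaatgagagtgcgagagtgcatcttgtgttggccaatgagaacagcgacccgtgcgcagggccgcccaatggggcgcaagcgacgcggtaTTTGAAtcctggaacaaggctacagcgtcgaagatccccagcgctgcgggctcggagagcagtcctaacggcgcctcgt
The lower mitotic genes with the largest changes and a match follow as windows of 30 bases, at chr14:55191706-55191735, chr17:28599005-28599034, chr4:120066807-120066836, chr10:92593090-92593119 and chr1:163321958-163321987.
DLGAP5: tctcacccatctTTTGAActggcccttcac
SPAG5: gcgcagagcaggTTCAAAcacagacggcgg
MAD2L1: tgcgtcgttactTTTGAAacgcttggcggg
KIF11: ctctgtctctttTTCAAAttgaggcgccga
NUF2: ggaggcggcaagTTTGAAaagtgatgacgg

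DNA replication genes did not share this pattern. Of 52 at the minimum 6 were higher and 6 lower (median -0.08), though after removal of the general shift the counts were 2 and 10. The largest changes were those of GINS1, part of the replicative helicase (-1.52), and DBF4, which activates the kinase CDC7 (-1.27). For DBF4 another probe set, close to the minimum, changed by only -0.10. Of the regulators of G1, CCNE2, the cyclin that drives entry into S phase, had 11.73 with sh-circ_0000073 and 13.54 with sh-NC (3.51-fold lower). CDKN2A, the locus of an inhibitor of CDK4 and CDK6, was higher, at 14.04 with sh-circ_0000073 and 11.90 with sh-NC (4.41-fold), and so were CDK6 (1.37) and CCND1 (1.00), whereas CDK4 had 14.69 with sh-circ_0000073 and 15.42 with sh-NC. MDM2, a ubiquitin ligase, had 11.24 with sh-circ_0000073 and 12.51 with sh-NC. Genes of growth arrest and cell death went both ways, with the cyclin-dependent kinase inhibitor CDKN1A at -0.72 and GADD45A at -1.16 but PMAIP1, a killer protein of the BCL2 family, at 1.65, PLK2 at 1.52 and AEN at 1.30. BIRC2, an inhibitor of apoptosis, changed by -1.63 and its relative XIAP by 1.09. CCNE2, MDM2, BIRC2 and CDK4 belong to 16 genes picked by the study from these arrays because they were lower in both lines. Of these 15 reached the minimum and all 15 were lower by more than 1.5-fold, with a median of -1.07, which is not independent evidence. Apart from the arrays, the study reported lower CCNE2 and MDM2 after silencing of the circle by qRT-PCR and Western blot.

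Hypoxia genes split, with 7 of 23 higher and 6 lower, and 6 and 7 after removal of the general shift. Adrenomedullin (ADM) had 11.32 with sh-circ_0000073 and 9.44 with sh-NC, whereas BNIP3L had 12.96 with sh-circ_0000073 and 14.27 with sh-NC and the prolyl hydroxylase EGLN1 and the factor EPAS1 changed by -1.18 and -1.08. Both EGLN1 and EPAS1 are among the genes that the study picked for being lower. Of genes for the xenobiotic response CYP1B1, a target of the aryl hydrocarbon receptor, had 10.04 with sh-circ_0000073 and 7.63 with sh-NC, and its receptor AHR changed by 0.51.

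Zinc finger genes named ZNF, most of which encode repressors of transposable elements or of genes, were higher in 68 of 296 cases and lower in 6, with a median of 0.29, and in 50 and 10 after removal of the general shift. ZNF317 had 10.24 with sh-circ_0000073 and 8.26 with sh-NC, and ZNF41, ZNF37A and ZNF33B each changed by 1.71. Histone methyltransferases, demethylases and deacetylases were higher in 13 of 47 cases (27.7%) and lower in 2 (4.26%), against 16.5% and 9.03% of all genes. The higher ones included KDM2A (1.40), KDM2B (1.30) and SIRT2 (1.26). Once the general shift was removed, 10 were higher and 3 lower. Of 34 autophagy genes 9 were higher (26.5%, against 16.5% of all genes) and 1 lower (2.94%, against 9.03%). After removal of the general shift 5 of the 34 were higher, against 1370 of all 11769 genes, and 1 was lower. The starter kinase ULK1 had 7.48 with sh-circ_0000073 and 6.20 with sh-NC, and ATG3 12.95 and 13.82. Cytosolic ribosomal protein genes lay close together, with 7 of 52 higher (13.5%, against 16.5% of all genes), none lower and 47 above 0 (median 0.27), and 3 were higher after removal of the general shift. The paralogues RPL26L1 and RPL22L1 changed most, by 1.76 and 1.46. The microRNA machinery, which processes hairpins, was higher in 1 of 20 cases and lower in 3. DROSHA changed by 1.28, and DICER1 had 9.37 with sh-circ_0000073 and 10.25 with sh-NC. The deadenylase CNOT6 changed by -1.73, the splicing factor TRA2A by -1.87 and SNRPC, of the U1 particle, by -2.02. Of 52 splicing factors 5 were higher and 3 lower, and 2 and 4 after removal of the general shift. Replication-dependent histone genes were spread widely, with 13 of 50 higher and 12 lower, and 9 and 15 after removal of the general shift. Among intergenic noncoding RNAs LINC00662, at 12.90 with sh-circ_0000073 and 14.58 with sh-NC, was the largest decrease among 65, of which 9 were higher and 7 lower, and 5 and 10 after removal of the general shift.

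By class of gene, 17.8% of 8802 protein-coding genes were higher and 9.91% lower. Pseudogenes had 12.9% higher and 5.17% lower among 2011, and long noncoding RNAs 14.9% and 10.1% among 308. Of 183 microRNA genes 13.7% were lower and 9.29% higher, and their median change was -0.10. After removal of the general shift lower genes were also the more frequent among protein-coding genes (13.7%, against 12.8% higher) and long noncoding RNAs (13.6% and 10.4%). For genes of which a further probe set reached the minimum, 76 of 92 further probe sets of higher genes and 44 of 49 of lower genes changed in the same direction, and 2 and 0 were past 1.5-fold in the opposite direction.

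Set beside MG-63, the response of Saos-2 was partly shared. Of 10500 genes at the minimum in both lines, 443 were higher in both, 303 lower in both, 98 higher in Saos-2 and lower in MG-63, and 63 lower in Saos-2 and higher in MG-63. The 443 genes were 26.5% of the genes higher in Saos-2 and 29.7% of those higher in MG-63, where 14.2% of all these genes were higher. The 303 genes were 36.4% of those lower in Saos-2 and 26.2% of those lower in MG-63, where 1156 of all 10500 were lower. Medians were set side by side for 62 lists with at least 10 genes at the minimum in each line. The list of genes picked by the study was left out, but its members stayed in the other lists. The amino acid stress list had a median of 0.66 in Saos-2 and -0.28 in MG-63, and the interferon effectors had -0.47 and -0.94. Integrins (0.64 in Saos-2 and 0.24 in MG-63), immediate early and ERK feedback genes (0.51 and 0.32) and semaphorins (0.42 and 0.44) lay above the background of both lines. None of these differences between the lines was tested.

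**Figure D5:**
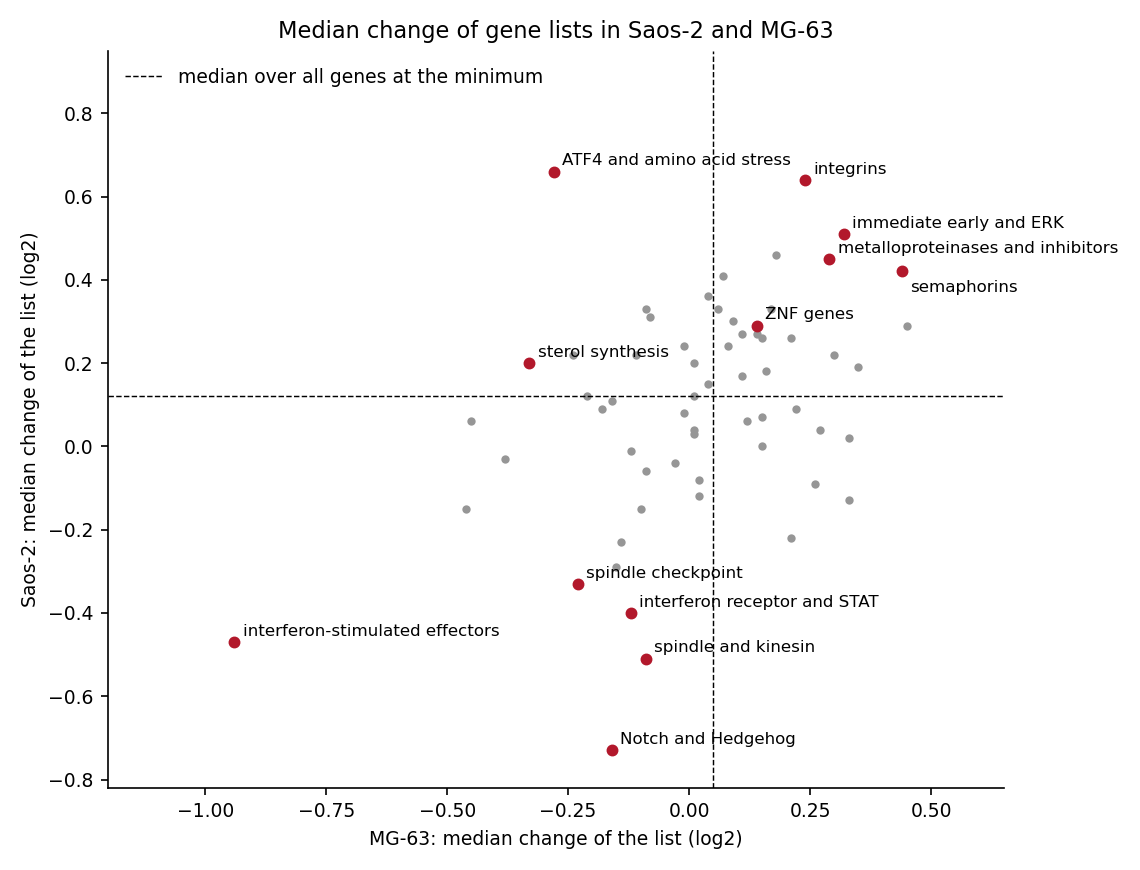
Median change of 62 gene lists in Saos-2 (vertical, log2) against that in MG-63 (horizontal, log2), each list with at least 10 genes at the minimum in each line. The list of genes picked by the study is left out, but its members stay in the other lists. Dashed lines mark the medians over all genes at the minimum, 0.12 in Saos-2 and 0.05 in MG-63. The amino acid stress list lies at 0.66 and -0.28, and Notch and Hedgehog genes at -0.73 and -0.16, of which the Saos-2 value is 0.06 without 3 members picked by the study.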

How the data were processed

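The deposited values were log2 signals per probe set, which the authors made with Affymetrix Expression Console from arrays labelled with a GeneChip WT Pico Reagent Kit. RNA was extracted with TRIzol after Lipofectamine transfection. The console's version and its way of summarising probes and removing background, which decide how weak signals are compressed, were not given in the sources used here. Precision was limited by the number of arrays, 1 per condition. Exactly 1 symbol stood beside 36176 of the 135750 probe sets, more than 1 beside 1119 and none here beside 98455, and 623 names were updated with a RefSeq table of GRCh38.p14. For each of 33458 genes the probe set with the highest mean signal over the arrays was used. A gene named only on probe sets with several symbols was not analysed here. Changes were counted past 1.5-fold among genes with a higher signal of at least 6, without p-values, and in MG-63 by the same rule. Promoters came from RefSeq (GRCh38.p14), which held 7723 of the 11769 genes. Python 3.11.15, pandas 2.3.3 and numpy 2.4.6 were used. The counting was tested on simulated data with changes far past the threshold, which does not check calls near it. Alternatives were centring, quantile normalization, subtraction of the median change in 20 bins of mean signal, means over probe sets, other minimums and 2-fold. The text names the 20 largest increases and decreases, in each list at most the 8 members that changed most, markers of the line and genes the study followed. PANX3, IFITM5, SLC3A2 and AARS1 were named after their values were seen. The members and lists were chosen with earlier results of these data known.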

Additional observations from a re-analysis of the deposited data

Results flagged for a closer look

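Among 628 named genes, 24 were past 1.5-fold in opposite directions in the lines, 8 of them higher and 16 lower in Saos-2. Each line had 1 array per condition and the difference between the lines was not tested. Higher in Saos-2 and lower in MG-63 were the stress factor DDIT3 (1.23 in Saos-2 and -0.72 in MG-63), LTBP3 (1.37 and -1.13), MAML2 (1.16 and -0.73), the metallothionein MT1E (1.06 and -0.67), SNORD14E (0.72 and -0.96), the peptide transporter TAP2 (0.77 and -0.88), TNFAIP2 (0.77 and -0.77) and ZNF248 (1.30 and -0.94).

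Lower in Saos-2 and higher in MG-63 were the BMP decoy receptor BAMBI (-1.85 in Saos-2 and 2.89 in MG-63), BDNF (-1.56 and 1.28), CDH8 (-1.59 and 1.11), the checkpoint kinase CHEK2 (-1.23 and 1.31), EGFR (-1.05 and 0.59), FJX1 (-0.62 and 0.70), follistatin FST (-0.64 and 1.07) and IFIT2 (-1.25 and 1.23). The same was seen for the insulin receptor substrate IRS2 (-1.12 and 1.75), ITGA4 (-0.83 and 1.14), RSPO2 (-0.67 and 1.11), SKA1 (-0.72 and 0.68), SNORA24 (-0.70 and 1.07), TGFBR3 (-1.13 and 0.84), TNFAIP3 (-0.65 and 1.98) and WIF1 (-1.27 and 0.81). TNFAIP3 restrains NF-kappaB and FST binds activins. BAMBI had the widest gap between the lines in this group of 16.

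Probe sets without exactly 1 symbol, which no comparison above used, also held changes. Of 99574 such probe sets 13547 had a higher signal of at least 6, and among these 1325 were higher and 1506 lower by more than 1.5-fold in Saos-2 with sh-circ_0000073, with a median change of 0.01. The changes lay between -2.67 and 4.55. Genes without a name here are part of the response but could not be described.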

How the results depend on the processing

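No paired analysis was possible because each condition has 1 array. Against 1937 genes higher and 1063 lower, centring gave 1639 and 1267, quantile normalization 1652 and 1264, subtraction by signal bin 1370 and 1477, means over probe sets 1831 and 1010, a minimum of 8 gave 1343 and 746, and both signals at 6 or more gave 1645 and 903. Without a minimum the counts were 3002 and 1734, and at 2-fold 537 and 363. The share of higher genes among the changed was 64.6%, and 48.1% after subtraction by signal bin. Of 628 named genes none reversed. Centring, quantile normalization and subtraction by signal bin moved genes at the minimum by only -0.15 to 0.04. A change past 1.5-fold could therefore not reverse under them, and the absence of reversals there is no check. Named genes that crossed the 1.5-fold threshold numbered 39 on centring, 43 on quantile normalization, 74 on subtraction by signal bin and 24 on means over probe sets. The median of the Notch and Hedgehog list was 0.03 without a minimum and, in an alternative chosen after seeing the data, 0.06 without the 3 genes picked by the study, and that of the adipocyte and cartilage markers was -0.04 without a minimum and -0.06 at a minimum of 8 or with both signals at 6 or more. Weak signals limit the sizes of changes whose dimmer array lay under 6.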
